A study of Mus with 4 samples.

Results

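The genes described here are 53 ligands, latency proteins, receptors, SMAD proteins and regulators of the TGF-beta and BMP pathways, measured in PPS-ICBR cells. They were chosen by name from a fixed list, and a probe set counted only where the platform annotation gave it 1 symbol. All 53 were on the array, with 114 probe sets among them, out of 18193 genes and 45037 probe sets tested. PPS-ICBR is labelled as a prostate cancer line of mouse strain C57Bl6. Cells plated at 60% confluency were exposed overnight to vorinostat at 5 µM in DMSO (2 arrays) or to DMSO alone, 5 µL per 10 mL of medium (2 arrays). Vorinostat is a hydroxamate inhibitor of histone deacetylases. Nothing in the labels tells whether replicate arrays stem from separate cultures. The p-values therefore cover no more than the spread among these 4 samples, and that spread may be technical. In such bulk RNA, fewer cells of a type and less RNA per cell cannot be told apart.

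Ligands of this family are secreted as dimers, and TGF-beta itself is held in a latent complex in the matrix until it is activated. A ligand brings type I and type II serine-threonine kinase receptors together, and the type I receptor phosphorylates a receptor SMAD. TGF-beta and activins act mainly through Smad2 and Smad3, and BMPs through Smad1, Smad5 and Smad9, which then enter the nucleus with the shared partner Smad4. Inhibitory SMADs, ubiquitin ligases, corepressors and secreted antagonists limit the signal. In prostate epithelium the TGF-beta arm is known for restraining growth and the activin arm for inhibitory effects on epithelial cells.

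Expression is the deposited log2 value, and a change is the vorinostat mean minus the DMSO mean on that scale, with its standard error (SE). Each gene is represented by its probe set with the highest mean. With vorinostat, 11 of the 53 genes rose and 13 fell at an adjusted p threshold of 0.05 by limma, against 20.9% of all genes that rose and 18.9% that fell, and 29 members did not pass. These 24 genes make up 45.3% of the members, against 39.9% of all genes that passed, so the share of changed members was close to that of the whole array. Changes of at least 2-fold comprised 2 rises and 4 falls, 11.3% of the members against 11.9% of all genes. The median log2 change was 0.00 over the members and 0.03 over all genes. The arrays of the groups did not overlap in 42 members, 79.2%, against 68.9% of all genes. Of the 53 genes 7, Ltbp2, Bmp5, Bmp6, Gdf10, Acvrl1, Smad6 and Nog, lay near background on all 4 arrays, which here means within 1 log2 unit of the highest control probe set for tryptophan synthesis transcripts, which no sample should contain. Of the 46 that did not, 52.2% passed, against 51.6% of all genes above that level. The groups did not overlap in 82.6% of these 46, against 79.3% of all genes above that level.

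The changes that held in all 13 alternative analyses were those of 12 genes. The activin subunit Inhba, the ligand Gdf11, the activin type I receptor Acvr1b, the inhibitory Smad7 and the activin-binding Fstl3 rose. The BMP ligand Bmp2, the follistatin gene Fst, the latency protein Ltbp1, the matrix protein Tgfbi, the BMP-type Smad1 and Smad5 and the ubiquitin ligase Smurf1 fell. The other 12 changed genes lost their call in at least 1 alternative, as given below.

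**Figure D1:**
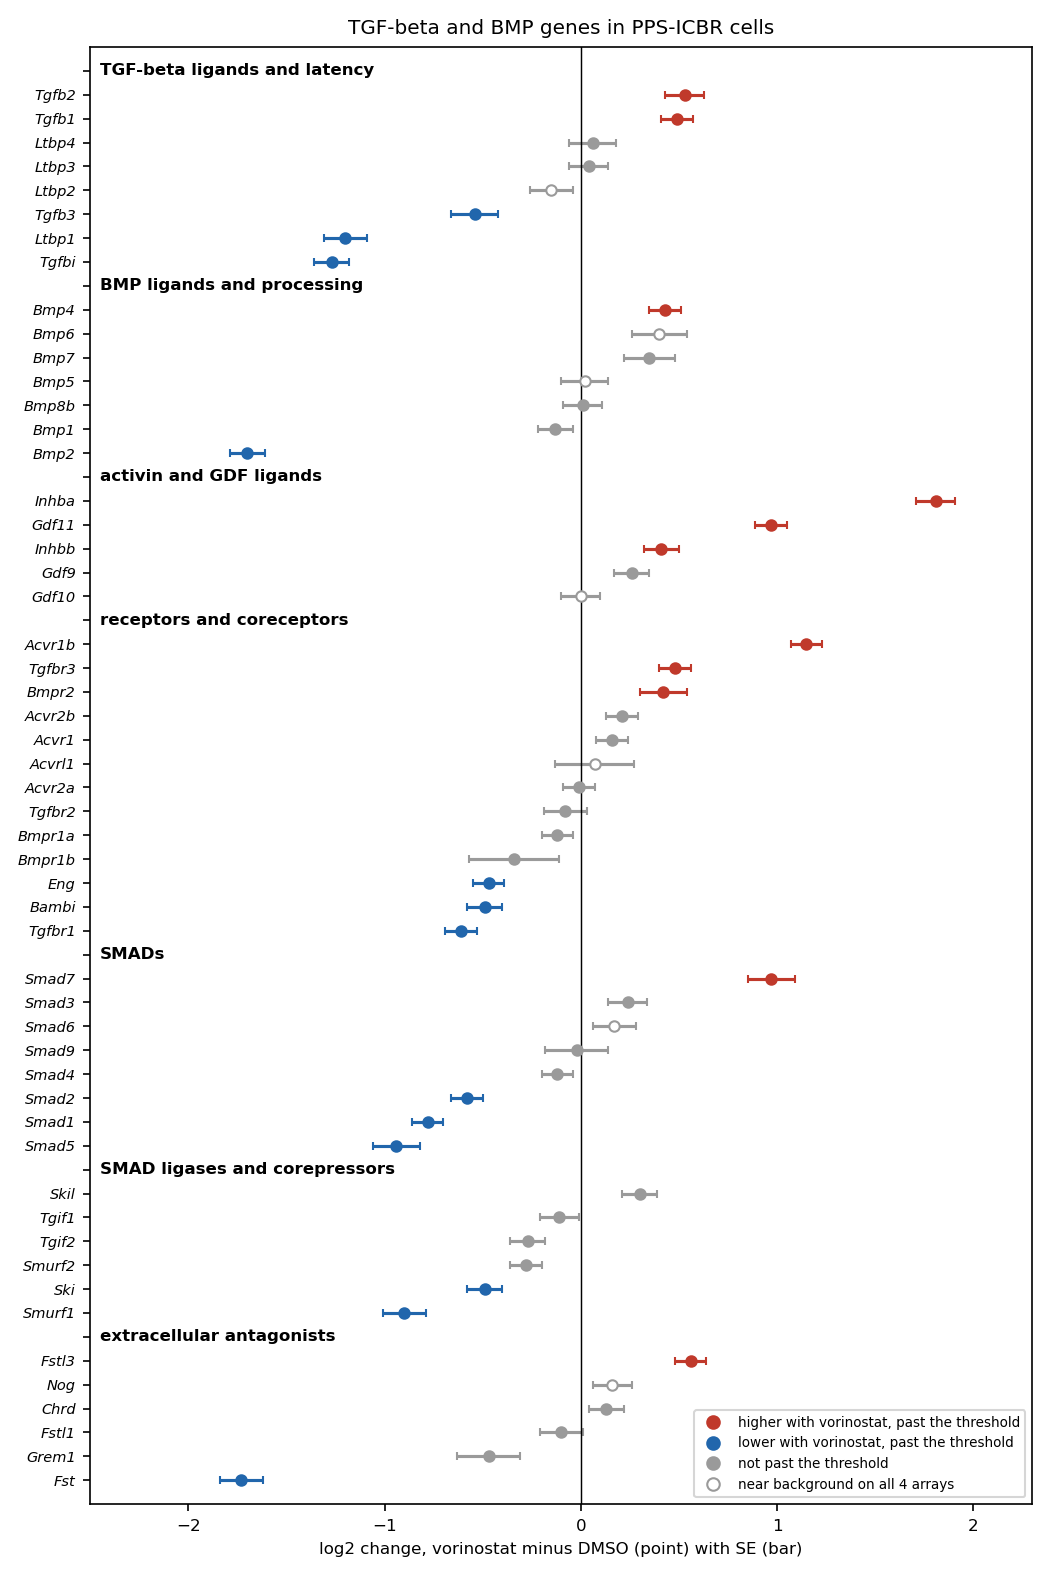
Log2 change with vorinostat relative to DMSO for each of the 53 genes, grouped by role, as points with SE bars (n = 2 arrays per group). Red genes rose (11) and blue genes fell (13) on the deposited scale (28 and 7 with scaling on reference genes), grey genes did not pass the threshold, and open points are genes near background on all 4 arrays. The changes ran from -1.73 for Fst to 1.81 for Inhba.

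The arrays themselves separated the treatments clearly. Within a group they correlated at 0.9972 or above over probe sets and between groups at most at 0.974, and 9 probe sets differed by over 2-fold between the vorinostat arrays and 16 between the DMSO arrays. All 9 epithelial markers lay above background, with means of 7.84 and 7.94 with vorinostat and 7.82 and 7.79 with DMSO. The keratin gene Krt19 rose by 1.10 (SE 0.10) and the claudin gene Cldn4 by 0.77 (SE 0.11), Krt8 fell by 1.05 (SE 0.12), and 6, among them Krt18, Epcam and Cdh1, did not pass. Of 4 measured prostate luminal genes, Hoxb13 rose by 0.54 (SE 0.08) and Psca by 1.32 (SE 0.12), Tmprss2 did not pass, and the secretory gene Pbsn lay near background on all arrays. The fibroblast list averaged 7.79 and 7.89 with vorinostat and 7.80 and 7.89 with DMSO, but its members split, with 3 that rose and 1 that fell. In the endothelial list 6 of 8 genes were near background on all arrays and 0 of 8 passed. Its mean level was 3.01 and 3.03 with vorinostat and 3.09 and 3.10 with DMSO. Immune markers averaged 4.69 and 4.79 with vorinostat and 4.21 and 4.28 with DMSO. Of 7 measured immune genes, Cd68 rose by 4.65 (SE 0.09) and Cd3e by 0.43 (SE 0.09), Cd14 fell by 1.67 (SE 0.18), and 4 did not pass. Ptprc, which marks blood-derived cells, Itgam and Adgre1 were near background on all arrays. Their part in the results was not tested.

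The activin and GDF ligands held the largest rise. Inhba, which encodes the subunit of activin A, had 11.91 and 12.08 in the vorinostat arrays, against 10.23 and 10.13 in the DMSO arrays. Both vorinostat arrays lay far above both DMSO arrays. The change was 1.81 (SE 0.10), 3.52-fold higher, with an adjusted p of 0.000289 by limma. A second Inhba probe set was near background on all 4 arrays, at 0.06, and the mean over both was 0.94. Gdf11, an activin-like ligand that acts on the same SMADs, had 6.06 and 6.03 with vorinostat and 5.06 and 5.10 with DMSO. The groups were well apart, and the gene rose by 0.97 (SE 0.08, adjusted p = 0.000732), 1.95-fold. Inhbb, the subunit of activin B, rose by 0.41 (SE 0.09), with 5.33 and 5.41 against 4.89 and 5.02. It did not pass when any 1 array was left out, with changes of 0.35 without DMSO 1, 0.48 without DMSO 2, 0.45 without Vorinostat 1 and 0.37 without Vorinostat 2. Gdf9, known as an oocyte ligand, changed by 0.26 (SE 0.09, adjusted p = 0.0792).

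The antagonists of activin moved apart from each other. Fst encodes follistatin, a secreted protein that binds activins and blocks their access to receptors, and it had 6.37 and 6.59 with vorinostat, against 8.27 and 8.14 with DMSO. Both vorinostat arrays lay below both DMSO arrays by more than 1 log2 unit. It fell by 1.73 (SE 0.11, adjusted p = 0.000407), 3.31-fold, and a second probe set fell by 1.91 (SE 0.10). Fstl3, a follistatin-like antagonist of activins, had 8.03 and 7.99 with vorinostat and 7.47 and 7.43 with DMSO. It rose by 0.56 (SE 0.08, adjusted p = 0.00425), 1.47-fold, the opposite direction to Fst. Among BMP antagonists, Grem1 changed by -0.47 (SE 0.16, adjusted p = 0.0808). Its vorinostat arrays were unequal, at 8.83 and 9.27 against 9.48 and 9.55, and without Vorinostat 2 the change was -0.69 and passed. It also passed with median centring (-0.53), with an intensity trend in the variance (-0.47) and when low probe sets were filtered out (-0.47). Chrd, which encodes chordin, changed by 0.13 and the secreted glycoprotein gene Fstl1 by -0.10, neither of which passed, and Nog, for noggin, was near background.

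**Figure D2:**
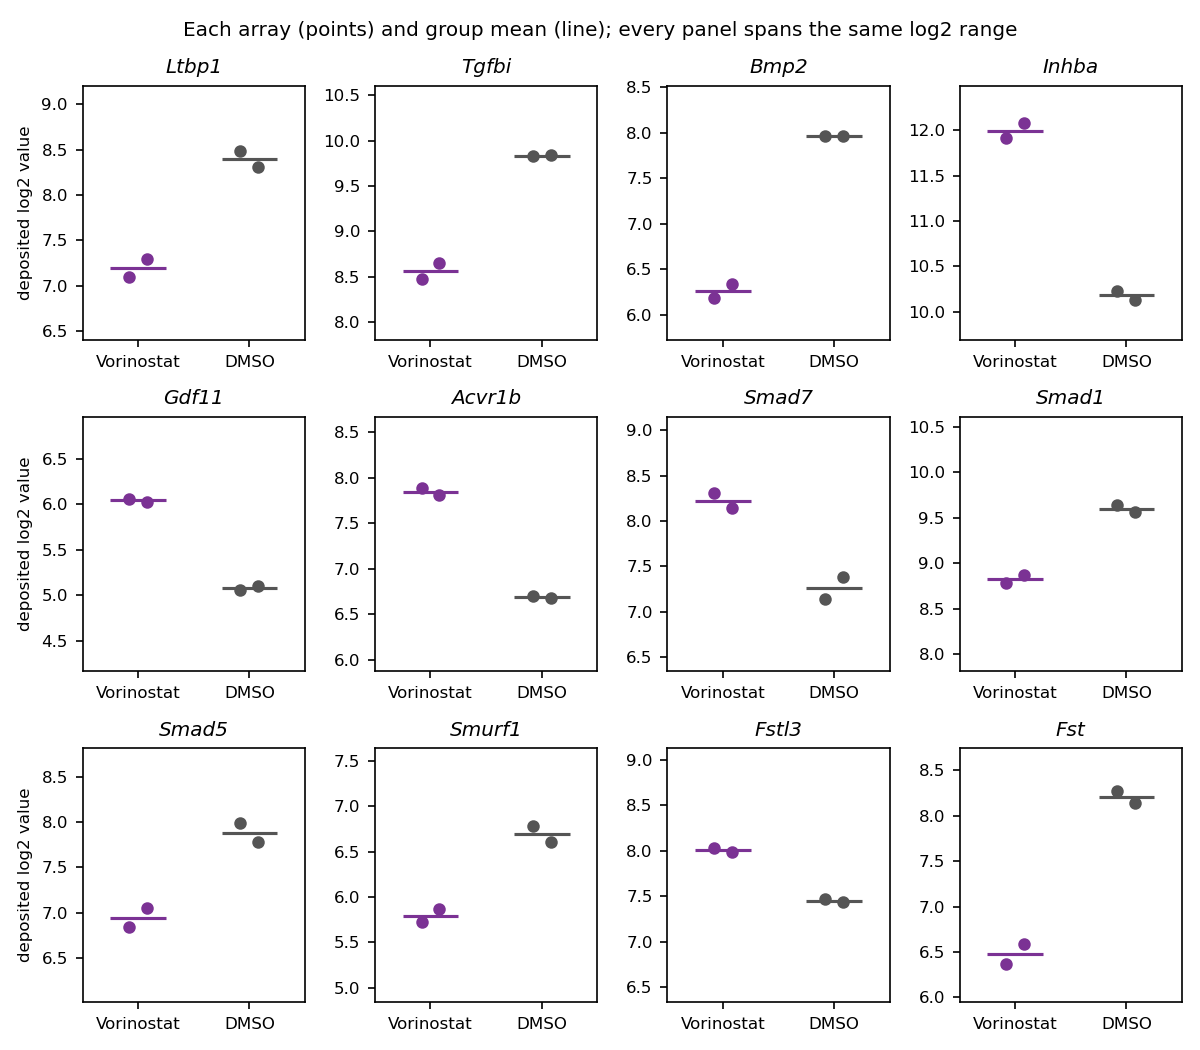
Deposited log2 value of each array (points) and group mean (line) for the 12 genes whose call held in all 13 alternative analyses, vorinostat to the left of DMSO (n = 2 each). All panels span the same log2 range. Inhba, Gdf11, Acvr1b, Smad7 and Fstl3 lie higher with vorinostat, and the other 7 lie lower, with no overlap of the groups in any panel.

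Of 7 genes for BMP ligands and their processing, 1 fell and 1 rose, 28.6% against 39.9% of all genes. Bmp2, a ligand known for bone and early embryonic patterning, had 6.18 and 6.34 with vorinostat, against 7.97 and 7.96 with DMSO. The DMSO arrays were almost identical and both vorinostat arrays lay well below them. It fell by 1.70 (SE 0.09, adjusted p = 0.000278), 3.26-fold. Its close relative Bmp4 had 8.53 and 8.57 with vorinostat and 8.18 and 8.07 with DMSO. It rose by 0.43 (SE 0.08, adjusted p = 0.0144), in the opposite direction to Bmp2. Leaving out DMSO 1 gave 0.48, DMSO 2 0.37, Vorinostat 1 0.45 and Vorinostat 2 0.41 for Bmp4, none of which passed. Bmp7 changed by 0.35 (SE 0.13, adjusted p = 0.107), and Bmp8b and the procollagen proteinase gene Bmp1, which is no ligand of the family, by 0.01 and -0.13. Bmp5 and Bmp6 were near background on all arrays.

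The 3 TGF-beta isoforms did not change together. Tgfb1 had 6.19 and 6.16 with vorinostat and 5.72 and 5.65 with DMSO, and rose by 0.49 (SE 0.08, adjusted p = 0.00744). Tgfb2 had 4.45 and 4.63 with vorinostat and 3.99 and 4.04 with DMSO, and rose by 0.53 (SE 0.10, adjusted p = 0.0115), with 2 more probe sets that rose by 0.48 and 0.59. Tgfb3 had 6.06 and 6.34 with vorinostat and 6.71 and 6.77 with DMSO, and fell by 0.54 (SE 0.12, adjusted p = 0.0208). All 3 changes were under 2-fold. Each kept its direction with any 1 array left out, but not its call in every such fit. Tgfb1 did not pass without DMSO 2 (0.45), Vorinostat 1 (0.47) or Vorinostat 2 (0.51), and a second probe set was at -0.12. The mean over both Tgfb1 probe sets was 0.18 and did not pass. Tgfb2 lost its call without DMSO 1 (0.50), DMSO 2 (0.55) or Vorinostat 2 (0.43), and Tgfb3 without DMSO 1 (-0.57), DMSO 2 (-0.51) or Vorinostat 1 (-0.40).

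Among genes of the latent complex and the matrix, Ltbp1 and Tgfbi gave larger falls than Tgfb3. Ltbp1, which tethers latent TGF-beta to matrix fibrils, had 7.10 and 7.30 with vorinostat, against 8.48 and 8.31 with DMSO. The arrays of the groups were about 1 log2 unit apart. It fell by 1.20 (SE 0.11, adjusted p = 0.00112), whereas 2 other probe sets, 1 of them near background on all arrays, were at -0.27 and -0.29 and did not pass. The mean over all 3 was -0.58. Tgfbi, a secreted matrix adhesion protein named for its induction by TGF-beta, had 8.48 and 8.65 with vorinostat, against 9.83 and 9.84 with DMSO. It fell by 1.27 (SE 0.09, adjusted p = 0.00056), 2.42-fold, and its 3 other probe sets also fell, by 0.91 to 1.08. The Tgfbi probe set used has a name ending that marks possible matches to several transcripts, while the probe set without such an ending fell by 0.95. The related latency proteins Ltbp3 (0.04, SE 0.10) and Ltbp4 (0.06, SE 0.12) did not pass, and Ltbp2 was near background.

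Of 13 receptor and coreceptor genes, 3 rose and 3 fell, 46.2% against 39.9% of all genes and 51.6% of genes above background. Acvr1b encodes ALK4, the type I receptor through which activins signal, and it had 7.89 and 7.81 with vorinostat, against 6.70 and 6.68 with DMSO. Replicates lay within 0.1 log2 unit of each other and the groups far apart. The gene rose by 1.15 (SE 0.08, adjusted p = 0.000489), 2.23-fold. A second probe set was at 0.04 and did not pass, and the mean over both gave 0.60. The activin type II receptor genes Acvr2a (-0.01, SE 0.08) and Acvr2b (0.21, SE 0.08, adjusted p = 0.108) did not pass.

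Of the TGF-beta receptors, Tgfbr1, the type I receptor ALK5, had 7.30 and 7.40 with vorinostat and 7.95 and 7.96 with DMSO. It fell by 0.61 (SE 0.08, adjusted p = 0.00382), 1.52-fold. The call held with any 1 array left out but was lost with scaling on reference genes (-0.24, adjusted p = 0.0535). The mean over its 3 probe sets was -0.35. The type II receptor gene Tgfbr2 had 10.55 and 10.83 with vorinostat and 10.76 and 10.78 with DMSO, so that the groups overlapped. Its change of -0.08 had a 95% interval of -0.37 to 0.21. Tgfbr3, or betaglycan, a coreceptor that presents ligands to the type II receptor, had 9.11 and 9.22 with vorinostat and 8.67 and 8.69 with DMSO, and rose by 0.48 (SE 0.08, adjusted p = 0.0092). The call was lost on omission of DMSO 1 (0.47), DMSO 2 (0.49) or Vorinostat 2 (0.43). Eng, or endoglin, a coreceptor best known from endothelium, fell by 0.47 (SE 0.08), with 5.62 and 5.64 against 6.08 and 6.13, and did not pass without DMSO 2 (-0.45), Vorinostat 1 (-0.46) or Vorinostat 2 (-0.48). Its endothelial partner receptor Acvrl1, or ALK1, was near background on all arrays.

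The BMP type I receptor genes Bmpr1a (-0.12, SE 0.08) and Acvr1 (0.16, SE 0.08) did not pass, nor did Bmpr1b (-0.34, SE 0.23). Bmpr2, the BMP type II receptor, had 9.17 and 9.45 with vorinostat and 8.93 and 8.85 with DMSO, and rose by 0.42 (SE 0.12, adjusted p = 0.0464), the weakest call among the members. Another Bmpr2 probe set was at -0.54 and did not pass, and the mean over its probe sets was 0.08. The call was lost with arrays centred on their medians (0.36), and without DMSO 1 (0.46), DMSO 2 (0.38), Vorinostat 1 (0.55) or Vorinostat 2 (0.28). Bambi, a pseudoreceptor that lacks a kinase domain and dampens signalling, had 5.10 and 5.07 with vorinostat and 5.51 and 5.63 with DMSO. It fell by 0.49 (SE 0.09, adjusted p = 0.0096 by limma), but did not pass without DMSO 2 (-0.43), Vorinostat 1 (-0.50) or Vorinostat 2 (-0.47).

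Of the 3 receptor SMADs of the BMP arm, Smad1 and Smad5 fell. Smad1 had 8.78 and 8.87 with vorinostat, against 9.64 and 9.56 with DMSO, and fell by 0.78 (SE 0.08, adjusted p = 0.0018), 1.71-fold. Its 2 other probe sets fell by 0.97 and 0.87. Smad5 had 6.84 and 7.05 with vorinostat, against 7.99 and 7.78 with DMSO, and fell by 0.94 (SE 0.12, adjusted p = 0.00303), 1.92-fold, with falls of 0.45 and 0.65 at its other probe sets. All 6 probe sets of this pair fell, with no overlap between the groups. Smad9, the remaining BMP-type SMAD, was close to the background limit, with 3.33 and 3.74 against 3.44 and 3.68 and a change of -0.02.

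In the TGF-beta and activin arm, Smad2 and Smad3 differed. Smad2 had 8.50 and 8.47 with vorinostat, against 9.04 and 9.10 with DMSO, and fell by 0.58 (SE 0.08, adjusted p = 0.00381). With any 1 array left out it still passed, but not with scaling on reference genes (-0.22, adjusted p = 0.074). A second Smad2 probe set was at -0.19 and did not pass. Smad3 had 8.26 and 8.46 with vorinostat and 8.16 and 8.09 with DMSO, a change of 0.24 (SE 0.10, adjusted p = 0.137) with a 95% interval of -0.01 to 0.49. Another probe set of Smad3 rose by 0.32 (SE 0.08). The common partner Smad4 changed by -0.12 (SE 0.08, 95% interval -0.33 to 0.08) and did not pass at any of its 3 probe sets.

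Smad7, which competes with receptor SMADs and recruits Smurf ligases to the receptor, had 8.31 and 8.14 with vorinostat, against 7.14 and 7.38 with DMSO. It rose by 0.97 (SE 0.12, adjusted p = 0.00266), 1.96-fold, and a second probe set rose by 1.37 (SE 0.09). Smad7 was the only SMAD of 8 that rose on the deposited scale, and Smad6, the other inhibitory SMAD, was near background on all arrays. Smurf1, a ubiquitin ligase that targets Smad1, Smad5 and receptors, had 5.72 and 5.87 with vorinostat, against 6.78 and 6.60 with DMSO. It fell by 0.90 (SE 0.11, adjusted p = 0.00235), 1.87-fold, and a second probe set fell by 0.43. Its paralogue Smurf2 was at -0.28 (SE 0.08, adjusted p = 0.0558) at the probe set used, and another probe set fell by 0.38.

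Among nuclear corepressors of SMADs, Ski had 7.32 and 7.19 with vorinostat and 7.81 and 7.69 with DMSO, and fell by 0.49 (SE 0.09, adjusted p = 0.0128). It did not pass without DMSO 1 (-0.44), DMSO 2 (-0.55), Vorinostat 1 (-0.56) or Vorinostat 2 (-0.43). Skil, or SnoN, its relative, lay on the other side of 0, at 0.30 (SE 0.09), with an adjusted p of 0.0518 by limma that just missed the threshold. Tgif1 (-0.11, SE 0.10) and Tgif2 (-0.27, SE 0.09, adjusted p = 0.0745), homeobox corepressors, did not pass.

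More than 1 probe set was available for 36 of the 53 genes. Of the 18 among them that changed, 8 had another probe set called in the same direction, 0 had one called in the opposite direction and 10 had no other probe set called. The 8 were Fst, Tgfbi, Smad1, Smad5, Smad7, Smurf1, Tgfb2 and Bmpr2. The second Bmpr2 probe set that passed, at 0.35, was near background on all 4 arrays. Over all 114 probe sets of the members 42 passed, against 32.2% of the probe sets on the array. The 10 with no other probe set called were Inhba, Acvr1b, Ltbp1, Tgfb1, Inhbb, Tgfbr1, Tgfbr3, Eng, Smad2 and Ski. For these genes the call rests on 1 probe set. Second probe sets were at -0.17 for Ski, -0.25 for Eng, 0.29 for Tgfbr3 and 0.31 for Inhbb, and did not pass. Bmp2, Gdf11 and Fstl3 have only 1 on the array.

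**Figure D3:**
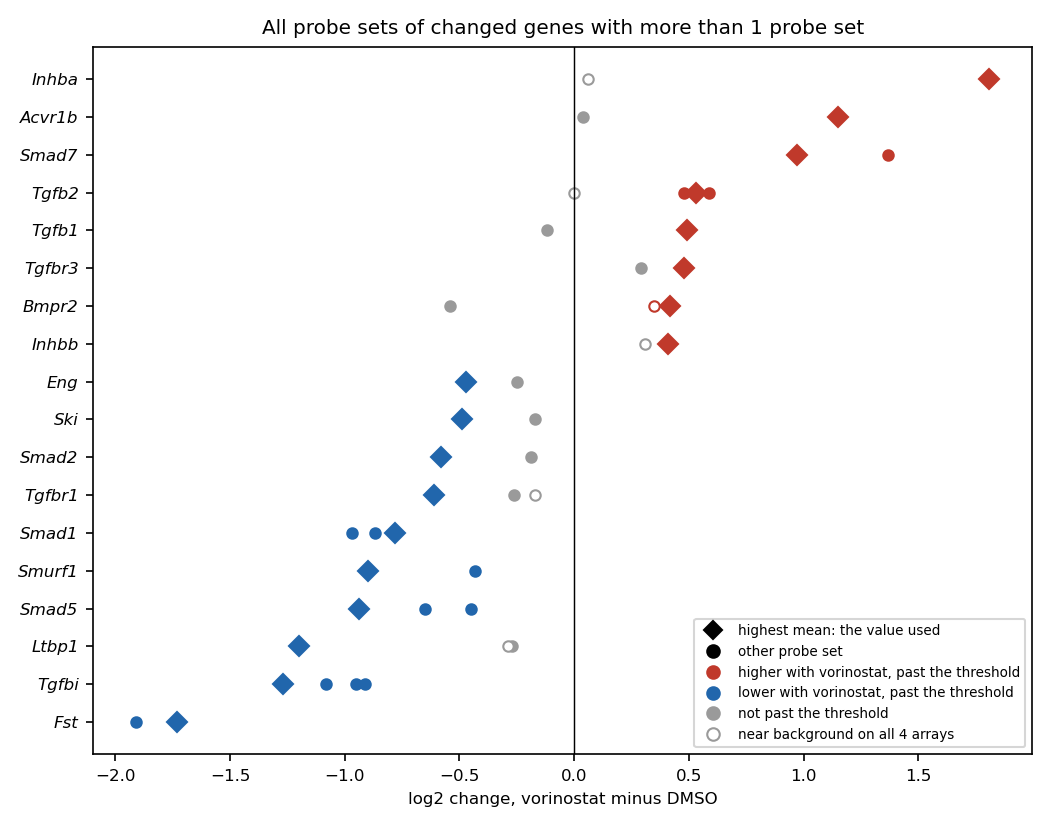
Log2 change of every probe set for the 18 changed genes that have more than 1. Diamonds mark the probe set with the highest mean, which is the value used, and circles the others, coloured by call and open where near background on all 4 arrays. In 8 genes another probe set passed in the same direction, and in none did one pass in the opposite direction.

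Other genes of the pathway were taken from 7 lists by role, and 3 genes stand on more than 1 of them. Of 29 listed TGF-beta target genes on the array, 12 rose, 7 fell and 10 did not pass. The median was 0.02, and 65.5% changed, against 39.9% of all genes and 51.6% of genes above background. Near background on all 4 arrays were 3 of the 29, among them Il11, which rose, and Itgb6, which fell. Junb, an AP-1 subunit, rose by 2.10 (SE 0.08) and Ccn2, or CTGF, a matricellular protein, by 2.07 (SE 0.08). The smooth muscle actin gene Acta2 fell by 1.61 (SE 0.08) at a probe set marked as matching several transcripts, while the specific one was at 0.25 and did not pass. The collagen cross-linking enzyme gene Lox fell by 1.14 (SE 0.17), and its probe sets averaged -0.69. Lox did not pass without DMSO 1 (-1.14) or DMSO 2 (-1.14).

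Of 15 BMP target genes, 4 rose and 2 fell, 40% against 39.9% of all genes and 51.6% of genes above background. Near background on all 4 arrays were 2 of the 15. The Notch and BMP effector Hey1 rose by 1.34 (SE 0.16) and the homeobox gene Msx2 by 0.75 (SE 0.19), while Tbx3 fell by 0.56 (SE 0.09) and Hes1 by 0.35 (SE 0.08). Msx2 did not pass without DMSO 2 (0.50), Vorinostat 1 (0.86) or Vorinostat 2 (0.65), Tbx3 without DMSO 1 (-0.54), DMSO 2 (-0.57) or Vorinostat 1 (-0.47), and Hes1 with any 1 array left out (-0.37 to -0.33). Over all their probe sets Msx2 averaged 0.41 and Tbx3 -0.29. The Id genes, classical direct BMP targets, did not pass: Id1 changed by 0.27 (SE 0.09), Id2 by -0.01 (SE 0.13), Id3 by 0.19 (SE 0.10) and Id4 by 0.24 (SE 0.09).

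Among 14 genes of latent TGF-beta activation, 3 rose and 4 fell, 50% against 39.9% of all genes and 51.6% of genes above background. Of the 14, 2 were near background on all 4 arrays, among them Itgb6, which fell by 0.34 (SE 0.09). The plasminogen activator Plat rose by 4.11 (SE 0.14), 17.3-fold, with 11.30 and 10.95 in vorinostat arrays against 7.07 and 6.97 in DMSO arrays, and Plau, the urokinase gene, by 1.28 (SE 0.13). The membrane metalloproteinase gene Mmp14 fell by 1.42 (SE 0.11) and the proprotein convertase gene Furin, which cleaves TGF-beta precursors, by 0.48 (SE 0.09). Plat averaged 2.43 over its probe sets. Furin lost its call without DMSO 1 (-0.40), Vorinostat 1 (-0.46) or Vorinostat 2 (-0.49).

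Of 30 intracellular SMAD cofactors and turnover genes, all above background, 4 rose and 9 fell. That is 43.3% of the list, against 39.9% of all genes and 51.6% of genes above background. The endosomal sorting gene Hgs rose by 0.79 (SE 0.10) and the ubiquitin ligase gene Nedd4l by 0.51 (SE 0.08), and the phosphatase gene Ctdsp1 fell by 1.16 (SE 0.10) and the coactivator gene Crebbp by 1.05 (SE 0.14). Nedd4l lost its call without DMSO 1 (0.54), DMSO 2 (0.48) or Vorinostat 1 (0.46), and Crebbp without Vorinostat 1 (-0.96).

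Of 18 further antagonists and matrix regulators, 6 of which were near background on all arrays, 4 rose and 1 fell, 27.8% against 39.9% of all genes. Among the rises, Fstl5 (0.34, SE 0.08) was near background on all 4 arrays. Decorin, or Dcn, a proteoglycan that binds TGF-beta, rose by 1.26 (SE 0.10) and the BMP-binding gene Bmper by 0.46 (SE 0.11), and Twsg1, a chordin partner, fell by 0.49 (SE 0.09). Dcn averaged 0.56 over its probe sets. Bmper did not pass with any 1 array left out (0.36 to 0.56), nor Twsg1 without DMSO 1 (-0.46), DMSO 2 (-0.52) or Vorinostat 2 (-0.41).

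Of 13 other ligands of the superfamily, 5 were near background on all arrays and 1 passed, 7.69% of the list against 39.9% of all genes. It was Lefty1, a Nodal antagonist, which rose by 0.82 (SE 0.08). Of 10 other receptors and coreceptors, 3 of which were near background on all arrays, 3 rose and 1 fell, 40% against the same 39.9%. Vasn, which binds TGF-beta, was at 0.88 (SE 0.08), the coreceptor Cd109 at 0.46 (SE 0.11) and Neo1 at -0.45 (SE 0.09). The remaining rise was that of Hjv (0.34, SE 0.09), which was near background on all 4 arrays. Cd109 lost its call without DMSO 1 (0.35), Vorinostat 1 (0.51) or Vorinostat 2 (0.42), and Neo1 without DMSO 1 (-0.43), DMSO 2 (-0.46) or Vorinostat 1 (-0.38). Neo1 was at -0.14 at its more specific probe set.

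**Figure D4:**
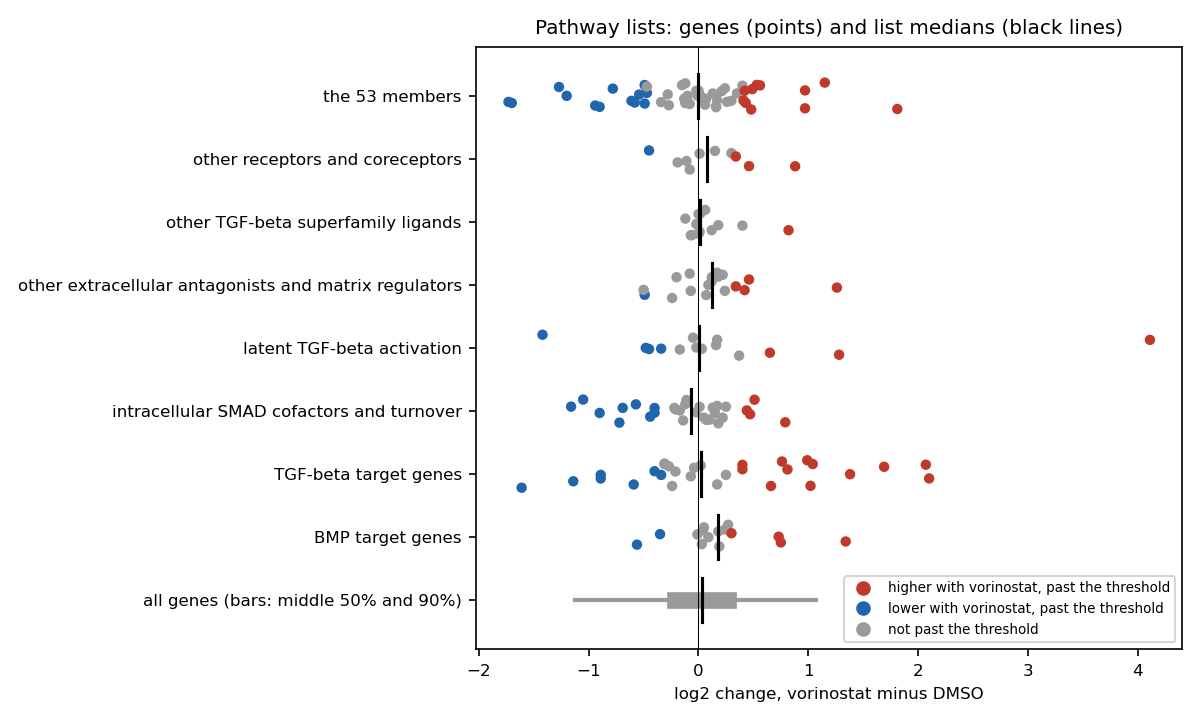
Log2 change with vorinostat relative to DMSO for the 53 members and for each of 7 lists of other pathway genes (points, coloured by call), with the median of each list as a black line. The bottom row shows all 18193 genes as a thick bar for the middle 50% and a thin bar for the middle 90%. List medians lie between -0.06 and 0.18, against 0.03 over all genes.

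The balance of rises and falls depended on the scaling of the arrays. When 7 reference genes, with a mean change of -0.37, set the scale, the median change over all genes was 0.40, in place of 0.03, and 28 members rose and 7 fell. Rises were 80.0% of the changed members under that scaling and 45.8% on the deposited scale, against 84.7% and 52.5% of all changed genes. None of the 24 changed members turned its direction under any alternative. Scaling on reference genes could turn none of them, because it adds the same amount to every change. The smallest of the called falls, 0.47 for Eng, exceeded that amount. Under that scaling Tgfb3 (-0.17), Tgfbr1 (-0.24), Eng (-0.11), Smad2 (-0.22), Ski (-0.13) and Bambi (-0.12) no longer passed as lower. Bmp2, Fst, Ltbp1, Tgfbi, Smad1, Smad5 and Smurf1 still did. Smad1 was then at -0.41, Smad5 at -0.58 and Smurf1 at -0.53. Rises that passed on the deposited scale were bound to be larger. They reached 0.93 for Fstl3, 0.80 for Bmp4, 0.78 for Inhbb and Bmpr2, 0.85 for Tgfbr3, 0.86 for Tgfb1 and 0.89 for Tgfb2. Outside the members, Neo1 (-0.08), Twsg1 (-0.12), Furin (-0.11) and Tbx3 (-0.19) no longer passed, and Hes1 was at 0.02. The reference genes ranged from -1.42 for Gusb and -0.75 for Polr2a to 0.08 for Actb. Gusb and Polr2a themselves passed as lower on the deposited scale, while Actb, Hprt (-0.23), Tbp (-0.01), Ywhaz (-0.26) and Sdha (0.01) did not pass.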

How the data were processed

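Vorinostat and DMSO groups of 2 arrays each were taken from the sample titles. The deposited table gives each probe set of an array as a log2 value. Per the submitters' processing notes, RMA and the Transcriptome Analysis Console were used, with no version given. RMA equalises the distributions of the arrays, which hides any shift common to all transcripts. The number of arrays limits the precision. No source used here names a genome build.

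After 64 control probe sets were left out, limma 3.58.1 in R 4.3.3 (lmFit, eBayes, two-sided, 3.26 prior degrees of freedom) was fitted to 45037 probe sets, with Benjamini-Hochberg adjustment over all of them and a threshold of 0.05. The fit was tested on simulated data. Gene names came from a platform annotation in which 34945 probe sets have 1 symbol, 932 several and 9160 none. RefSeq identifiers (assembly GRCm38.p6) matched 34741 and changed 0 symbols. Of the 9 reference genes listed for scaling, 7 had a probe set with 1 symbol. Log2 changes, SE and adjusted p of single genes come from this fit.

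The members, gene lists and tests were chosen with earlier results of these data known. Array values are given for members changed at least 2-fold, for the member with the smallest p in each role without one, and for others where they show how groups lie. From each further list, up to 2 rises and 2 falls were named. The Id genes, the reference genes and changed list genes near background on all arrays were named after their values were seen. Alternatives were 3 scalings, 2 variance models, a filter on low values, 2 choices of probe set, the replicate number as a block and the omission of each array.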

Additional observations from a re-analysis of the deposited data

How the results depend on the processing

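With the arrays scaled on reference genes, 28 members rose and 7 fell, against 11 and 13 on the deposited scale. That scaling adds the same amount to every change, set by the mean change of -0.37 over the 7 reference genes. Gusb (-1.42) and Polr2a (-0.75) were the lowest of these. What moved the reference genes was not tested. When single arrays were left out, 5 to 7 members rose and 9 to 11 fell. These fits compare 1 array with 2 and assume that the lone array varies like the other group. In the other 8 alternatives, 10 to 13 members rose and 13 to 16 fell. With the replicate number as a block, 10 rose and 13 fell, and Bmpr2 was the 1 changed member that lost its call (0.42, adjusted p = 0.101). Of the other named genes, Msx2 (0.75), Hes1 (-0.35) and Mocs2 (0.33) lost theirs with the block. The labels link same-numbered arrays only by their number. Their deviations from the group means correlated at -0.06, which cannot show whether they shared a culture or batch.

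None of the 24 changed members reversed, and 12 kept their call in all 13 alternatives. Scaling on reference genes could not have reversed any of the 24. The reversals listed next are of members that had not passed. Under reference-gene scaling these were Tgfbr2 (0.29), Ltbp2 (0.22), Bmp1 (0.24), Bmpr1a (0.24), Bmpr1b (0.03), Acvr2a (0.35), Smad4 (0.25), Smad9 (0.35), Smurf2 (0.09), Tgif1 (0.26), Tgif2 (0.10) and Fstl1 (0.26). Quantile normalization again turned Bmp8b (-0.06), Acvr2a (0.02) and Gdf10 (-0.04), and median centring turned Ltbp3 (-0.02), Bmp5 (-0.04), Bmp8b (-0.05) and Gdf10 (-0.06). The mean of all probe sets turned Bmpr1a (0.04). With single arrays left out, changes ranged from -0.08 to 0.09 for Bmp8b, -0.20 to 0.34 for Acvrl1, -0.09 to 0.10 for Gdf10, -0.11 to 0.14 for Bmp5, -0.22 to 0.18 for Smad9, -0.22 to 0.05 for Tgfbr2, -0.07 to 0.20 for Ltbp4, -0.23 to 0.02 for Fstl1 and -0.06 to 0.15 for Ltbp3. Of the other named genes, Hes1 turned to 0.02 under reference-gene scaling and Acta2 to 0.25 at its more specific probe set, the cause of which was not tested.

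Members near background have little room to show a fall, and background correction could not be varied from values already summarised per probe set.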

Other observations

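The nearest measured protein-coding genes on either side of the 6 members that changed at least 2-fold were looked up in RefSeq (assembly GRCm38.p6), whose gene order was used without coordinates. Of 12 such neighbours, 3 changed in the direction of the member, 2 in the opposite direction and 7 did not pass. Over the whole array, 39.9% of genes passed in either direction. One neighbour of Tgfbi is Smad5, itself a member, and both fell, by 1.27 and 0.94. Lect2, on the other side of Tgfbi, was at 0.38 (SE 0.14) and did not pass. Inhba has Gli3, a Hedgehog pathway transcription factor, on one side and Sugct, a CoA transferase gene, on the other. Gli3 had 6.37 and 6.52 with vorinostat and 7.49 and 7.45 with DMSO, and fell by 1.02 (SE 0.09), opposite to Inhba. Sugct rose by 1.23 (SE 0.16) and was near background in DMSO, but did not pass without DMSO 1 (1.27) or DMSO 2 (1.18). Acvr1b lies between Acvrl1, near background, and Grasp. Grasp rose by 0.42 (SE 0.08) but did not pass with any 1 array left out (0.40 to 0.44). Next to Fst, Mocs2 rose by 0.33 (SE 0.09) while Fst fell, and Mocs2 did not pass with any 1 array left out (0.26 to 0.39). The measured neighbours of Bmp2 (Lrrn4 and Hao1) and of Ltbp1 (Ttc27 and Rasgrp3) did not pass.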
